A study of Mus musculus with 2 samples.

Results

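The regions described here are open chromatin sites that lie near the starts of protein-coding genes but over 1 kb from them, in urinary bladder tissue of the mouse. They are the peaks that both animals of the study shared, on chromosomes 1 to 19, with a midpoint more than 1 kb and at most 10 kb from the nearest start of a protein-coding transcript and outside the exons of protein-coding transcripts. They number 14639 of 82107 shared autosomal peaks, which is 17.8%, and are called the 1-10 kb peaks. The number depends on the list and the annotation: it was 8441 with the smaller of the 2 deposited peak lists per animal and 23593 with starts of genes of every biotype. They were chosen by position and by presence in both animals. Neither height nor sequence was a criterion, but peaks found in both animals were taller, so height entered indirectly. The median height in replicate 1 was 1.18 for shared peaks at these positions and 0.592 for the others. The study is a DNase-seq experiment on bladder tissue from 2 females, each 36 days old, with 1 library per animal, called replicate 1 (animal 5) and replicate 2 (animal 6). Both animals are of the strain B6CASTF1/J, a hybrid of a laboratory strain with a wild-derived strain, and the deposited values do not separate the parental alleles. The labels name no treatment, no other tissue or control is analysed here, and bladder tissue mixes urothelium, smooth muscle, connective tissue, vessels, nerves and leukocytes.

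In DNase-seq, nuclei are digested lightly with deoxyribonuclease I, which cuts DNA where nucleosomes are absent, and the cut ends are sequenced. A peak is a stretch with many cuts, and a footprint is a short gap in the cuts within a peak, where a bound protein can shield the DNA. Open sites away from promoters include enhancers, which bind cell-type-specific transcription factors, and sites of CTCF, the zinc finger protein that stops cohesin and so anchors chromatin loops. AP-1, a dimer of FOS and JUN proteins, is a common occupant of enhancers in epithelial and muscle cells. With 1 group and 1 library per animal no test between groups exists, so values are given for each animal or as the mean ± SD over both animals, and differences between classes of peaks are descriptions.

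Among the motifs found in over 1% of the 1-10 kb peaks, the one most frequent relative to the flanks was the core of the CTCF binding site, which reads CCA, 2 unspecified bases, AG, 2 unspecified bases, GGC. Sites in 5 peaks are shown to let the shared core be seen in the sequence of different sites: near Upk1a, which encodes a uroplakin of the urothelial surface plaque, near Synpo2, which encodes an actin-binding protein of smooth muscle, near Pdgfra, a growth factor receptor of fibroblasts, and near Usp18 and Hsd17b14, whose peaks lie mostly in repeat-masked sequence. Each run covers 120 bases of GRCm38 centred on the core, is read on the strand that carries the core as spelled, and has the core in capitals.
Upk1a, 4766 bp downstream of its start (chr7:30608015-30608134, minus strand): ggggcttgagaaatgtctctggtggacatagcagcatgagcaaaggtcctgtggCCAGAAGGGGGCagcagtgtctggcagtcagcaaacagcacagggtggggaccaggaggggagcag
Synpo2, 9419 bp downstream (chr3:123103338-123103457, minus strand): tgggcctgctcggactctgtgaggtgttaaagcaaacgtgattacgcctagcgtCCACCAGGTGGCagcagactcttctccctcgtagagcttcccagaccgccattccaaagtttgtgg
Pdgfra, 8911 bp upstream (chr5:75143359-75143478, minus strand): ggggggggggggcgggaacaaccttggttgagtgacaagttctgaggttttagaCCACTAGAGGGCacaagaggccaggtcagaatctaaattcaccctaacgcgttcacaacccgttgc
Usp18, 3592 bp downstream (chr6:121272058-121272177, plus strand): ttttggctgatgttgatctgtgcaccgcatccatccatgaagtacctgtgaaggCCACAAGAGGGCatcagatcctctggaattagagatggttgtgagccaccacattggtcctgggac
Hsd17b14, 6504 bp downstream (chr7:45561378-45561497, minus strand): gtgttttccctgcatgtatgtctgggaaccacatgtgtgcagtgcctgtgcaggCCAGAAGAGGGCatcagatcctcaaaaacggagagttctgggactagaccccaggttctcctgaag
A footprint touched the capitals in both animals in all 5. The Usp18 and Hsd17b14 sites were chosen after their values were seen, as the 2 tallest peaks with over 50% of their central 150 bases repeat-masked and a CTCF core. Aligned at the core without gaps, these 2 runs were identical at 60 of 120 bases, and the sequence of each peak matched the genome once at 90% identity over 80% of its length.

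Other sites carry the AP-1 consensus TGANTCA, in capitals, and are shown because their footprints differed from those of CTCF. The runs cover 120 bases on the plus strand near Gata3, a transcription factor of urothelium, and near Cnn1 and Mylk, which encode calponin and myosin light chain kinase, both part of the smooth muscle contractile apparatus.
Gata3, 1101 bp upstream (chr2:9879696-9879815): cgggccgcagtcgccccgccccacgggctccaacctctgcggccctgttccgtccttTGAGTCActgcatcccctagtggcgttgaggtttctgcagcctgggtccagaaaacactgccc
Cnn1, 3025 bp upstream (chr9:22096117-22096236): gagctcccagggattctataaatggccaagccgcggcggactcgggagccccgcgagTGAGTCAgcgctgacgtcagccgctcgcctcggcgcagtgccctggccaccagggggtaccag
Mylk, 1544 bp downstream (chr16:34996331-34996450): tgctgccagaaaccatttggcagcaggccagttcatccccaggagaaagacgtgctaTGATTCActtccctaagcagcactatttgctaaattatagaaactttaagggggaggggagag
A footprint touched the AP-1 match in replicate 2 but not in replicate 1 at Gata3, in replicate 1 but not in replicate 2 at Cnn1, and in neither animal at Mylk.

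The 1-10 kb peaks were densest next to promoters and thinned out little beyond 3 kb. Per megabase (Mb) of non-exonic sequence at the same distance from starts, they numbered 68.5 at 1 to 2 kb, 44.7 at 2 to 3 kb and 39.0 at 3 to 4 kb, and between 33.2 and 36.7 in each further kilobase. Over the whole range the density was 41.3 per Mb, against 325 per Mb within 1 kb of a start, 34.0 per Mb at 10 to 20 kb and 11.5 per Mb beyond 100 kb. The excess at 1 to 2 kb lay mainly on the transcribed side, with 78.8 peaks per Mb downstream of the start and 58.8 per Mb upstream. From 3 kb outward the sides differed by less than 4 per Mb, with the upstream side higher except at 6 to 7 kb.

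**Figure D1:**
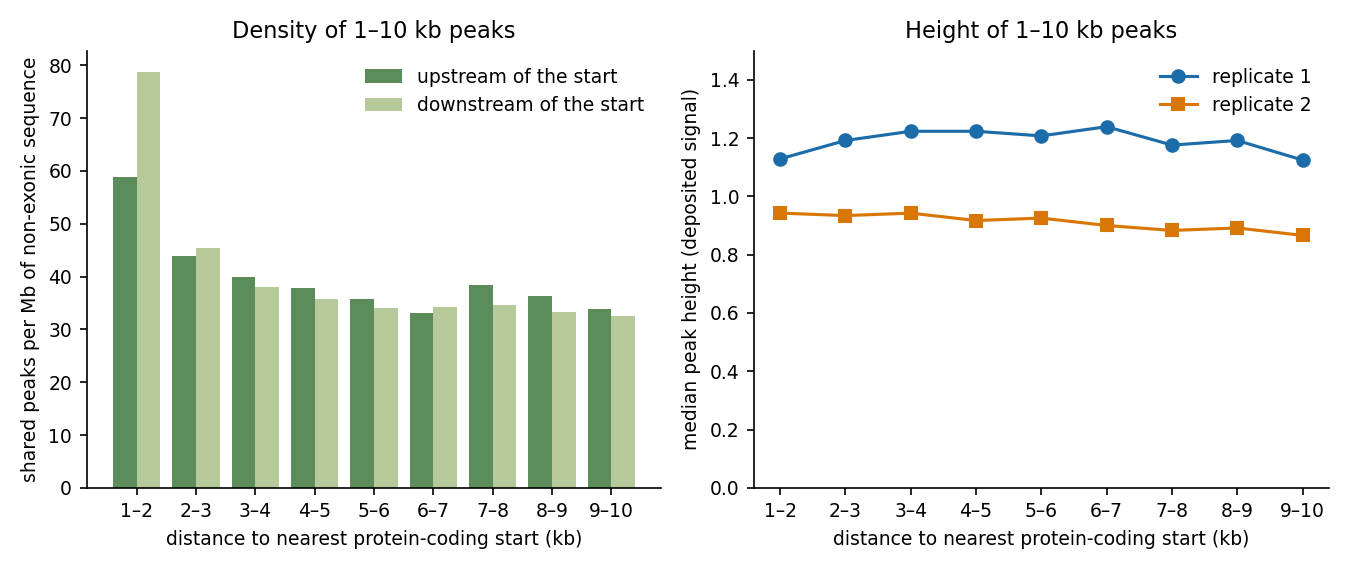
Density of shared 1-10 kb peaks per Mb of non-exonic sequence, upstream and downstream of the nearest protein-coding start (left), and their median height in each animal (right), by distance in kb. Density drops from 68.5 per Mb at 1 to 2 kb to 33.2 per Mb at 9 to 10 kb, while median height stays between 1.12 and 1.24 in replicate 1 and between 0.866 and 0.943 in replicate 2.

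By position, 7063 of the 1-10 kb peaks lay upstream and 7576 downstream of their nearest start. Bodies of protein-coding genes, outside the exons of their protein-coding transcripts, held 8927 (61.0%), and 709 of these lay in the body of a gene other than the one whose start was nearest. The other 5712 lay outside protein-coding genes and were taller, with median heights of 1.29 in replicate 1 and 1.00 in replicate 2, against 1.13 and 0.883 within genes. A start of a gene that is not protein-coding, such as a long noncoding RNA, lay within 1 kb of 862 (5.89%). Neighbouring 1-10 kb peaks on a chromosome were a median of 25894 bp apart, and 12.8% of the gaps were under 1 kb, so the peaks are not independent of each other.

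The word distal applied to most but not all of them. Stretches in which the authors' local cut rate passed a false discovery rate (FDR) of 0.05 without a break ran from the peak to within 1 kb of a protein-coding start in both animals for 949 (6.48%) and in either animal for 1412 (9.65%). These connected peaks lay a median of 1105 bp from the start where both animals showed the link. Of the 949, 38.5% had an observed over expected CpG ratio above 0.6, the level of CpG islands, against 10.2% of the 13227 peaks with no link in either animal. The connected peaks carried the CTCF core in 5.69% and the unconnected ones in 14.7% (replicate 1 midpoints).

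The heights of peaks just inside and outside the distance limits were close. At 1 to 1.1 kb (513 peaks) the median height was 1.03 in replicate 1 and 0.892 in replicate 2, and at 0.9 to 1 kb (547 peaks) it was 1.01 and 0.917. At 9 to 10 kb (1066 peaks) it was 1.12 and 0.866, and at 10 to 11 kb (1107 peaks) it was 1.11 and 0.875. A footprint touched 81.7% in replicate 1 and 78.4% in replicate 2 at 1 to 1.1 kb, against 79.7% and 69.1% at 0.9 to 1 kb, and 92.7% and 88.0% at 9 to 10 kb, against 91.8% and 85.5% at 10 to 11 kb.

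In height, which is the authors' signal value for each peak, the 1-10 kb peaks sat near the middle of all shared peaks. Their median was 1.18 in replicate 1 and 0.917 in replicate 2 (mean 1.05 ± 0.19, n = 2), with quartiles of 0.742 and 2.00 in replicate 1 and of 0.629 and 1.48 in replicate 2. The median over all shared autosomal peaks was 1.13 and 0.909. Peaks within 1 kb of a start had medians of 2.32 and 1.94, peaks at 10 to 100 kb 0.995 and 0.773, and peaks beyond 100 kb 0.687 and 0.552, an order that both animals gave. The median width of the 1-10 kb peaks was 200 bp in both animals. Their central 150 bases had a median GC content of 54.0%, against 48.0% in flanks 1 kb away, and a median CpG ratio of 0.26, against 0.75 in peaks within 1 kb of a start.

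**Figure D2:**
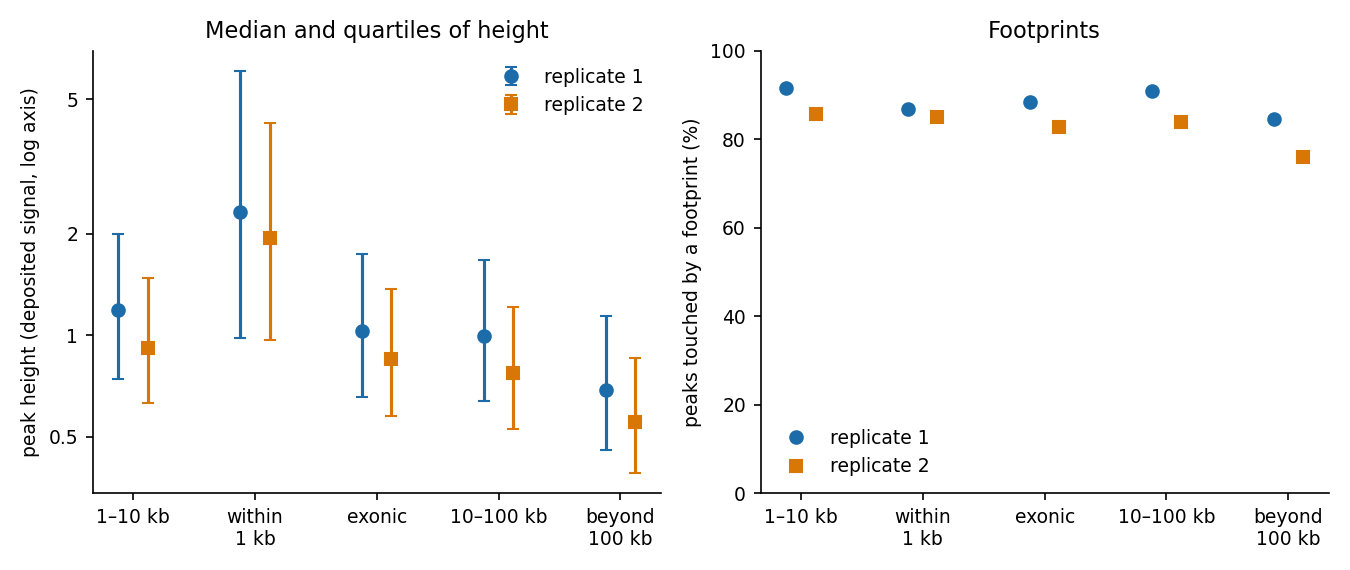
Peak height (deposited signal, log axis; symbols are medians and bars run from the lower to the upper quartile) and share of peaks touched by a footprint, for shared peaks by distance to the nearest protein-coding start, in replicate 1 and replicate 2. The 1-10 kb peaks have medians of 1.18 and 0.917, below the 2.32 and 1.94 within 1 kb, and footprint shares of 91.7% and 85.7%.

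The shared peaks were the taller ones at these positions. Of the 21185 replicate 1 peaks at these positions 69.1% overlapped a peak of replicate 2, and the 6546 that did not had a median height of 0.592, against 1.18 in those that did. The same position rule gave a shared fraction of 83.4% within 1 kb of starts and 68.6% at 10 to 100 kb.

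The tallest of the 1-10 kb peaks differed in how often their sequence occurs in the genome. Of the 10 tallest by mean log2 height, 6 matched the genome once and 4 more than once, at 90% identity over 80% of the peak. The 3 tallest had several matches. They lay 2421 bp downstream of the Il31ra start (37.7 in replicate 1 and 40.8 in replicate 2, 8 genome matches), 1564 bp upstream of the Kpna1 start (33.8 and 35.2, 3 matches) and 9596 bp upstream of the Txndc11 start (24.5 and 35.5, 8 matches). The Kpna1 and Txndc11 peaks lay 610 and 121 bp from a start of a gene that is not protein-coding. The remaining one with more than 1 match lay 8084 bp upstream of the Catspere2 start (16.7 and 9.69, 2 matches). Reads of such copies may be placed at any of them, so these heights are uncertain. The 3 tallest were higher in replicate 2 after centring, while the 7 others were higher in replicate 1.

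The 6 tall peaks with a single match included 2 near genes of the circadian clock. Nr1d1, which encodes the clock repressor REV-ERB alpha, had a peak 1352 bp downstream of its start with heights of 22.8 in replicate 1 and 11.5 in replicate 2. Per1, a core negative regulator of the clock, had one 1767 bp upstream with heights of 15.8 and 10.5. Mxi1 and Mnt, both antagonists of MYC at E-boxes, had peaks 1265 bp downstream (18.7 and 12.5) and 1371 bp downstream (16.2 and 9.57). Socs3, an inhibitor of cytokine receptor signalling, had one 5615 bp downstream (16.1 and 10.1), and Trpv4, a stretch-responsive cation channel of the urothelium, one 9260 bp upstream (14.8 and 10.6). A peak was named for the gene with the nearest start, which need not be the gene it acts on. Upstream and downstream refer to that transcript start, which need not be the first of its gene. The peaks given as upstream of Kpna1, Txndc11 and Per1 lay in the body of a protein-coding gene.

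The peaks near Nr1d1, Mxi1, Per1 and Mnt, 4 of the 6 tall ones with a single match, are shown because they lie nearest to the starts of their genes, with 150 bases on the plus strand, centred on a footprint that overlapped between the animals. Capitals mark matches on either strand to the SP box GGGCGG, the cyclic AMP response element (CRE) TGACGTNA, the NFY box AGCCAAT, the TEAD motif ACATTCC and the E-box CAGCTG.
Nr1d1 (chr11:98773884-98774033): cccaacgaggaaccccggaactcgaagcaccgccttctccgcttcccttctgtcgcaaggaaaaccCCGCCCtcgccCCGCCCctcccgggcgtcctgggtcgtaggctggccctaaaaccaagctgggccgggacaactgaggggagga
Mxi1 (chr19:53314258-53314407): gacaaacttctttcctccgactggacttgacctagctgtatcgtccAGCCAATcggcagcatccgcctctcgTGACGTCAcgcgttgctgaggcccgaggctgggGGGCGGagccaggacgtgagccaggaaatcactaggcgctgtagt
Per1 (chr11:69097119-69097268): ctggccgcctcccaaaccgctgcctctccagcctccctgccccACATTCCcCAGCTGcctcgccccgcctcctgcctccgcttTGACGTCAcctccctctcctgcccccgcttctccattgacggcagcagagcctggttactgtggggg
Mnt (chr11:74832304-74832453): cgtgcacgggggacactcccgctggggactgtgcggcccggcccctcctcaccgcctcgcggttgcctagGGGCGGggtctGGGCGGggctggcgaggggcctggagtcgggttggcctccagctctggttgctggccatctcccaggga
Among all 1-10 kb peaks these motifs occurred within 75 bp of the replicate 1 midpoint in 12.5% (SP), 0.881% (CRE), 2.40% (NFY), 2.67% (TEAD) and 14.7% (E-box CAGCTG), and among all shared peaks in 19.5%, 1.33%, 3.39%, 2.51% and 14.5%.

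Most of the 1-10 kb peaks held footprints, over most of the height range a larger share than of promoter peaks and a smaller one than of peaks further out. A footprint touched 91.7% of them in replicate 1 and 85.7% in replicate 2 (88.7 ± 4.2%, n = 2). In 11830 (80.8%) both animals had one, against a background of 77.7% over all shared autosomal peaks, and 502 (3.43%) had none in either animal. The share rose with height, from 53.3% in replicate 1 and 40.2% in replicate 2 among those in the lowest decile of all shared peaks by height to 100% in the highest decile of both animals. In decile 5, 94.4% and 89.3% had a footprint, against 72.4% and 69.1% of the peaks within 1 kb of a start in that decile, 96.2% and 93.0% of those at 10 to 100 kb and 97.1% and 94.8% of those beyond 100 kb. The share was below that at 10 to 100 kb in deciles 1 to 7 of replicate 1 and 1 to 9 of replicate 2. Footprint calls thus varied with height, and a peak without a footprint is not shown to be unbound.

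**Figure D3:**
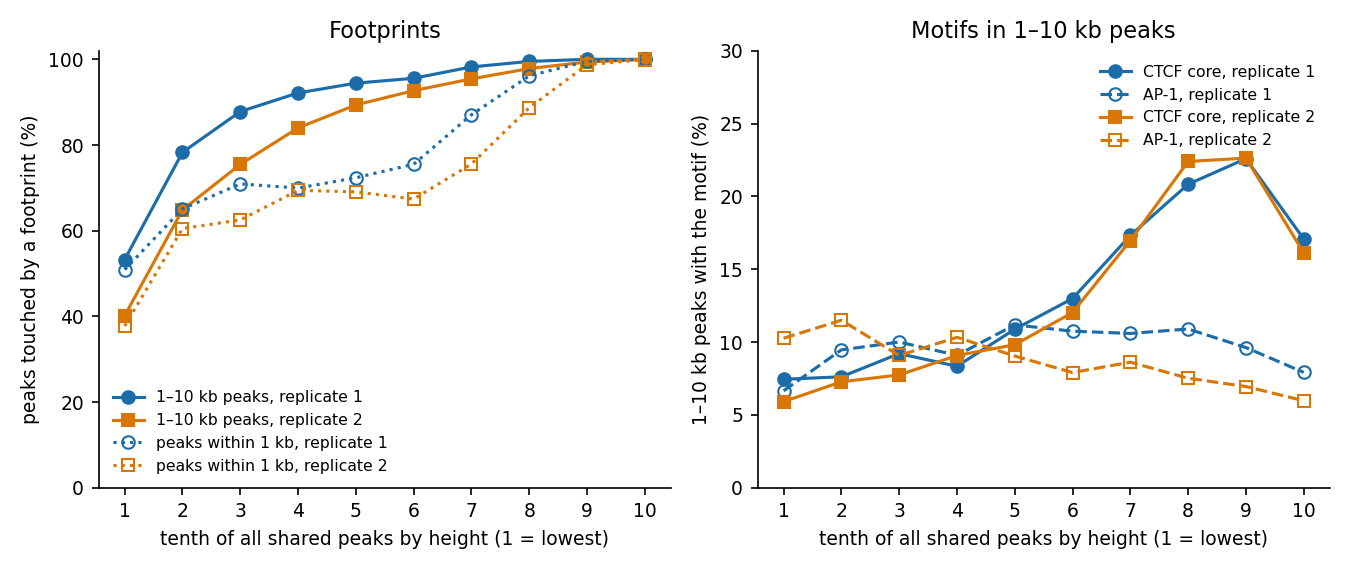
Share of peaks touched by a footprint (left) and share of 1-10 kb peaks with the CTCF core or AP-1 motif within 75 bp of the midpoint (right), by decile of all shared peaks by height (10 is the highest), in each animal. The CTCF share reaches 22.6% in decile 9 of both animals. The AP-1 share lies between 6.66% (decile 1) and 11.2% (decile 5) in replicate 1. In replicate 2 it is highest in decile 2, at 11.5%, and lowest in decile 10, at 5.98%.

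Within these peaks lay 35570 footprints in replicate 1, with a median length of 10 bp, and 32229 in replicate 2, with a median length of 9 bp. Of these, 49.3% in replicate 1 and 56.2% in replicate 2 touched a footprint of the other animal.

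Of 28 consensus motifs, 14 occurred at least 1.5 times as often around the midpoints of the 1-10 kb peaks as in flanks 1 kb away in both animals, and 8 occurred less often than in the flanks in both. The CTCF core stood in 2016 peaks by replicate 1 midpoints (13.8%) and in 13.3% by replicate 2 midpoints, against 1.60% and 1.54% of flanks. The background over all shared autosomal peaks was 9.97%, with 2.89% within 1 kb of a start, 13.6% at 10 to 100 kb and 8.59% beyond 100 kb. AP-1 stood in 9.95% and 8.80%, against 3.96% and 4.0% of flanks. Its background over all shared peaks was 8.89%, with 3.36% within 1 kb of a start and 11.8% at 10 to 100 kb. The mix of motifs in the 1-10 kb peaks thus lay much nearer to that of peaks further out than to that of promoter peaks, of which 46.0% held the SP box, against 12.5% of the 1-10 kb peaks and 8.55% of those at 10 to 100 kb.

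Other motifs were as frequent. The site TTGGCA of the NFI family, factors that bind as dimers and open enhancers in many mesenchymal and epithelial cells, stood in 15.0% and 14.8% of the peaks, against 7.22% and 7.20% of flanks. The E-box CAGCTG, bound by several basic helix-loop-helix factors, stood in 14.7% and 14.3%, against 7.85% and 7.87% of flanks. The KLF motif CCACNCCC, bound by Krüppel-like factors, stood in 9.37% and 8.74%, against 6.20% and 6.24% of flanks. The CREs and the ETS motif CCGGAAG were rarer but also above flanks, at 0.881% against 0.403% and at 1.95% against 0.850% in replicate 1. Over all shared peaks the shares in replicate 1 were 14.6% for the NFI site, 14.5% for the E-box and 8.84% for KLF, close to those of the 1-10 kb peaks, and 1.33% for CRE and 3.52% for ETS, above them. Below flanks lay the motifs of RUNX, MEF2, the CArG box of SRF, the p53 family, SOX, GATA, TCF/LEF and posterior HOX factors, the last at 0.489 and 0.465 times the flanks' share. Several of these are AT-rich, and the peaks had a median GC content of 54.0% against 48.0% in the flanks, whose part in the ratios was not tested. Among 7 motifs (CTCF, AP-1, NFI site, E-box CAGCTG, KLF, SP and ETS), 6014 peaks (41.1%) had none and 6292 (43.0%) had 1.

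CTCF sites tended to stand alone in taller peaks. The 2016 peaks with a core had a median height of 1.63, against 1.13 in the others (replicate 1), and 1.27 against 0.883 in replicate 2. A footprint touched 97.9% of them in replicate 1 and 95.5% in replicate 2. AP-1 stood in 4.66% of the peaks with a core and in 10.8% of those without, and the SP box in 6.75% against 13.4%. The core read towards the nearest start in 1005 peaks and away from it in 999. By distance, the share with a core was 8.39% at 1 to 2 kb and 13.2 to 16.7% in each further kilobase.

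Peaks in repeat-masked sequence carried the CTCF core more often, although they made up only 8.73% of the peaks with a core. Of the 444 peaks with over 50% of their central 150 bases repeat-masked, 176 (39.6%) held the core, against 13.0% of the other 14195. In replicate 2 the share was 36.1% of 443 such peaks against 12.6%. The same comparison gave 34.3% against 13.0% at 10 to 100 kb and 14.3% against 2.80% within 1 kb of a start (replicate 1). Some families of mouse short interspersed repeats are known to carry CTCF sites. The masked reference does not name the family, and the Usp18 and Hsd17b14 sites printed above belong to this group.

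Footprints lay over some motifs more often than over others. Matches and positions were taken about replicate 1 midpoints and set against the footprints of each animal. With footprints widened by 5 bp on either side, 84.5% of 2045 CTCF cores in replicate 1 and 80.4% in replicate 2 fell wholly inside one, against 18.1% and 14.3% of all positions of that length in the same windows. Matches of the full NFI palindrome were few, 26, of which 88.5% and 69.2% fell inside a footprint, against 14.2% and 11%. NRF1 matches (72) fell inside in 76.4% and 72.2%, against 20.7% and 16.5%, and CRE matches (134) in 61.2% and 47.8%, against 23.1% and 18.6%. AP-1 behaved otherwise: 22.4% and 17.4% of 1583 matches fell inside a footprint, against 24.3% and 19.5% of all positions. FOX matches (332) fell inside in 7.83% and 6.93% and steroid receptor matches (91) in 5.49% and 3.30%, both below all positions of their length. AP-1 was thus frequent in the peaks without an excess of footprints over its matches, which does not show that the factor was absent. Matches also differed in position, at a median of 10 bp from the midpoint for CTCF, 31.5 bp for AP-1 and 41.5 bp for FOX. The part of position in these shares was not tested.

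**Figure D4:**
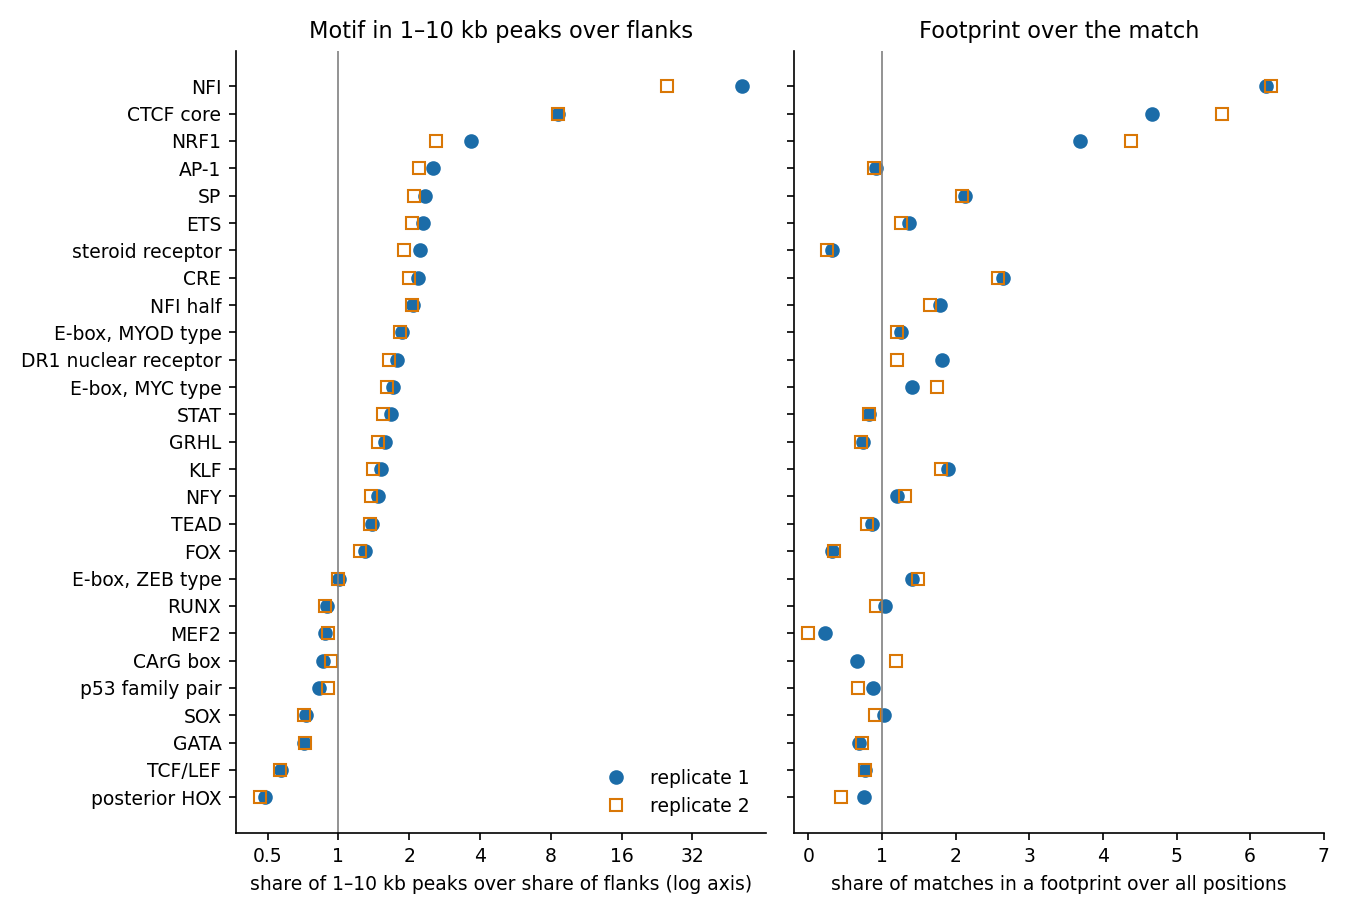
For motifs with at least 20 matching 1-10 kb peaks, the share of peaks with the motif over the share of flanks 1 kb away (left, log axis) and the share of matches inside a footprint over that of all positions (right), in each animal; the lines mark 1. The MYOD type E-box is CAGCTG. CTCF is high on both axes, at 8.62 and 8.61 over flanks, while AP-1 is at 2.51 and 2.20 over flanks and at 0.922 and 0.892 over all positions.

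Of 20722 autosomal protein-coding genes, 8017 had at least 1 such peak nearest to one of their starts, a background of 38.7%. Exactly 1 was found at 4557 genes, 5 or more at 383 and 10 or more at 23. Promoter peaks were likewise assigned only to the gene of their nearest start. Genes with a shared promoter peak so assigned had a 1-10 kb peak more often, 47.9% of 13046, against 23.1% of the 7676 other genes. A gene that shares an open promoter with a neighbour can be among these 7676. Most of the 1-10 kb peaks, 12047, belonged to genes with a promoter peak so assigned. The 2592 others carried the CTCF core more often, 19.4% against 12.6% (replicate 1).

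The genes named here with the most of these peaks were Tns1 with 25, Bcl9l with 24, Tnrc18 with 18, Zfp503 with 17, Foxp1 and Mecom with 15 each, Nfic with 13, and Epb41l2 and Kdm6b with 12 each. Tns1 encodes tensin 1, which links actin to integrin adhesions, and its peaks had median heights of 1.93 in replicate 1 and 1.69 in replicate 2. Bcl9l encodes a coactivator of beta-catenin (1.20 and 1.18). Foxp1, Mecom and Nfic encode transcription factors, with medians of 0.710 and 0.586, 0.868 and 0.841, and 2.72 and 2.28. Kdm6b, which encodes a demethylase of histone H3 lysine 27, had medians of 2.65 and 2.04. Genes with several annotated starts have more sequence within 10 kb of a start, and Tns1 has 11 starts and Foxp1 14, while Zfp503 and Kdm6b have 1 each.

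Most marker genes of urothelium and smooth muscle had such a peak. In the urothelium list 24 of 30 genes (80%) had one, against the background of 38.7%, 38 peaks in all, among them the uroplakin genes Upk1a, Upk1b, Upk2 and Upk3a. In the smooth muscle list 17 of 22 autosomal genes (77.3%) had one, 35 peaks in all. The fibroblast list had 9 of 16, the nerve and glia list 7 of 11, the housekeeping list 7 of 12, the endothelium and leukocyte lists 6 of 15 each (40.0%, close to the background), and a list of genes specific to other organs 4 of 15 (26.7%). All 18 genes of the AP-1 and immediate early list had one, 57 peaks in all, or 3.17 per gene, against 0.706 over all autosomal protein-coding genes. The lists were made with earlier results of these data known, so the counts describe them and support no claim that a list stands apart. In bulk tissue, fewer open cells of a type and less opening per cell cannot be told apart.

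Near urothelial genes the tallest of these peaks was the Gata3 peak printed above, with heights of 8.75 in replicate 1 and 4.65 in replicate 2. It lay 1101 bp upstream of its nearest start, in the body of a protein-coding gene. Tfap2a, a transcription factor of surface epithelia, had a peak 6023 bp downstream of its start with heights of 5.08 and 3.15. That peak lay 189 bp from a start of a gene that is not protein-coding. Esrp1, an epithelial splicing regulator, had one 1488 bp upstream with 4.16 and 2.04. All 3 were higher in replicate 1 after centring, by 0.56, 0.34 and 0.68. Of the 6 peaks near Foxa1, a pioneer factor of urothelium, 5 went the other way, with a median centred difference of -0.56 over the 6, and so did the single peaks of Klf5 (-0.64) and Pparg (-0.42), which encode transcription factors. The Foxa1 peaks 7242 and 7040 bp downstream had the same replicate 2 height, 0.883, so they may share 1 replicate 2 peak. Elf3, an epithelial ETS factor, had one 9797 bp downstream with 2.74 and 1.29, which carried an AP-1 match and lay 80 bp from a start of a gene that is not protein-coding. Krt8, a keratin of luminal cells, had one 2039 bp upstream with 2.66 and 1.27, and Krt5, the keratin of basal cells, one 1653 bp upstream with 2.94 and 0.926. The uroplakin peaks were lower: the tallest was the CTCF site of Upk1a with 1.64 and 1.02, and the lowest that of Upk2 7189 bp upstream with 0.632 and 0.425.

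Near smooth muscle genes the tallest lay 1887 bp downstream of the start of Smtn, which encodes smoothelin of the contractile filaments, with heights of 9.91 in replicate 1 and 5.92 in replicate 2. Srf, the transcription factor that drives contractile genes through the CArG box, had a peak 2242 bp upstream with 6.03 and 5.07. That peak lay in the body of a protein-coding gene and 628 bp from a start of a gene that is not protein-coding. Tpm2, a tropomyosin, had one 3247 bp downstream with 5.32 and 4.09. The Cnn1 and Mylk peaks printed above had heights of 4.84 and 3.14, and of 3.54 and 1.83. The only such peak of Acta2, the smooth muscle actin gene, lay 6866 bp upstream with 0.639 and 0.467, and the taller of 2 near Myh11, smooth muscle myosin, lay 1059 bp upstream with heights of 0.892 and 0.730. Over the genes of the list, the height of the tallest such peak ranged between 0.474 and 9.91 in replicate 1 and between 0.467 and 5.92 in replicate 2.

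Immediate early genes are switched on within minutes of growth factor or stress signals. The list that joins them with the AP-1 genes had the highest median of the 9 lists, 2.31 in replicate 1 and 1.64 in replicate 2 over 57 peaks. Housekeeping genes came next at 2.25 and 1.57 over 12 peaks, against 1.18 and 0.917 over all 1-10 kb peaks. Ier2 had a peak 1219 bp upstream with 11.9 and 6.95, Nr4a1 one 7838 bp upstream with 9.78 and 5.42, Junb one 2067 bp downstream with 8.90 and 5.84, Atf3 one 6392 bp upstream with 7.14 and 5.34, and Jun one 1109 bp upstream with 7.48 and 4.28. The Atf3 peak lay 23 bp and the Jun peak 91 bp from a start of a gene that is not protein-coding. Fos itself had lower values of 3.88 and 2.85, 1639 bp upstream.

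Between the animals, heights were compared only where both had a peak, which left out 6546 of the 21185 replicate 1 peaks at these positions. Within the shared set, heights of the 1-10 kb peaks were similar once the scale was removed. Replicate 1 heights were above those of replicate 2 by a median of 0.37 (log2), against 0.35 over all shared peaks, and all further differences are relative to that value, as replicate 1 minus replicate 2. The Spearman correlation of heights between the animals was 0.89 over 14639 peaks, which share each animal's library, and the SD of the difference was 0.43. The correlation was 0.92 over all shared autosomal peaks and 0.96 over those within 1 kb of a start. Only 137 peaks (0.936%) were over 2-fold higher in replicate 1, against a background of 0.898% of all shared autosomal peaks, and 213 (1.46%) were over 2-fold higher in replicate 2, against a background of 1.96%. Both shares lay near or below the background. The share in either direction, 2.39%, was 1.59% with the smaller deposited lists, 1.37% where the peaks had to overlap by 50% of both and 1.02% with the higher 50% of each animal's peaks.

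The peaks at the 2 ends of that range differed in motifs and in width. The 137 over 2-fold higher in replicate 1 carried AP-1 in 23.4% and the GRHL motif AACCNGTT, bound by epithelial grainyhead-like factors, in 7.30%, against 9.95% and 1.64% of all 1-10 kb peaks (replicate 1 midpoints). The 213 over 2-fold higher in replicate 2 carried them in 3.76% and 0.469%. These 213 were narrow in replicate 1, with a median width of 152 bp, against 457 bp in replicate 2, and 29.6% of them had a CpG ratio above 0.6, against 12.6% of all. Among them 54.9% had a footprint in replicate 1 and 80.3% in replicate 2. Their FDR 0.05 stretch reached within 1 kb of a start in 17.8% of cases in replicate 1 and 37.6% in replicate 2. These sets were chosen by the difference itself and are described without a test.

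Motifs moved with the difference over the whole set as well. Peaks with AP-1 had a median difference of 0.19, with 965 of 1457 (66.2%) higher in replicate 1, and peaks without it a median of -0.00, with 49.7% of 13182 higher. GRHL peaks had a median of 0.21, with 167 of 240 (69.6%) higher in replicate 1. Other motifs also leaned to replicate 1: the NFI palindrome had a median of 0.23 over 26 peaks, NRF1 0.17 over 68, CRE 0.13 over 129, KLF 0.09 over 1372 and SP 0.08 over 1827. CTCF peaks had 0.02 and TEAD peaks -0.02. In shared peaks outside the 1-10 kb range the AP-1 median was 0.15 and the GRHL median 0.17, so the pattern was not particular to this range. Over 5 equal groups ordered from the most negative to the most positive difference, the AP-1 share was 6.15%, 6.90%, 8.40%, 10.9% and 17.5%.

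By gene list, more of the peaks near urothelial genes were higher in replicate 1, and more of those near smooth muscle genes in replicate 2. The median difference was 0.26 over 38 urothelial peaks, of which 27 (71.1%) were higher in replicate 1, and -0.18 over 35 smooth muscle peaks, of which 12 (34.3%) were, against 51.3% of all 1-10 kb peaks. By the median of each gene's peaks, 21 of 24 urothelial genes were higher in replicate 1 and 3 in replicate 2, and 7 of 17 smooth muscle genes were higher in replicate 1 and 10 in replicate 2. Among the smooth muscle genes, Synpo2 (6 peaks, median -0.32) and Srf (5 peaks, -0.47) weigh most in the count of peaks. The Srf peaks with replicate 1 heights of 4.67 and 6.03 had the same replicate 2 height, 5.07. They may therefore share 1 replicate 2 peak, and the part of such sharing in these medians was not tested. Of the 5 tall peaks described above, those of Smtn (0.39), Mylk (0.59), Cnn1 (0.27) and Tpm2 (0.03) leaned to replicate 1. The tall Srf peak (-0.10) leaned to replicate 2. The endothelial list gave 0.35 over 8 peaks, all higher in replicate 1, fibroblasts 0.09 over 25, leukocytes 0.10 over 9 and the AP-1 and immediate early list 0.16 over 57, against 0.01 over all 1-10 kb peaks. The housekeeping list gave 0.06 over 12 peaks, of which 8 (66.7%) were higher in replicate 1. Genes of other organs gave 0.04 over 6 peaks, of which 4 (66.7%) were, and nerve and glia 0.09 over 13, of which 7 were. AP-1 matches stood in 7 of the 38 urothelial and 6 of the 35 smooth muscle peaks. The part of cell composition in these differences was not tested.

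**Figure D5:**
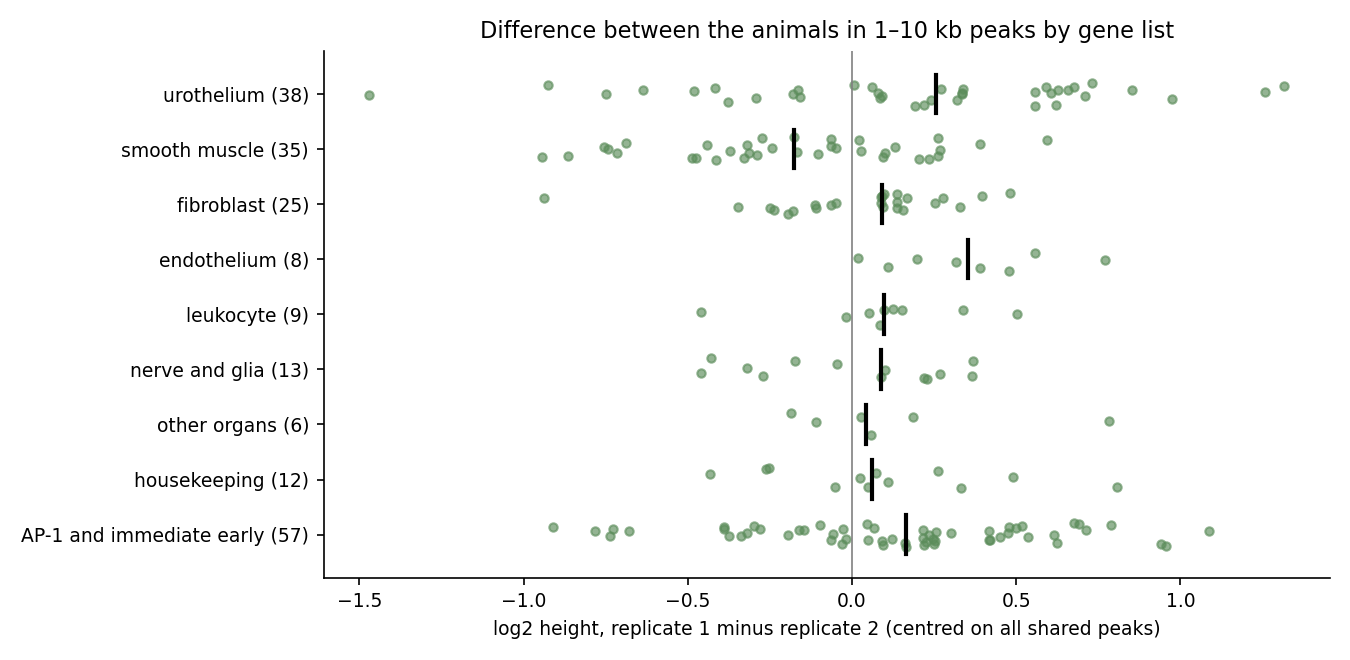
Difference in log2 height, replicate 1 minus replicate 2 and centred on all shared peaks, of each 1-10 kb peak near a gene of 9 lists; each point is a peak, the black bar is the list's median, and the number of peaks is in parentheses. The urothelial median is 0.26 and the smooth muscle median -0.18, and both lists have points on either side of 0.

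Among the 6326 peaks at or above the median height in both animals, the 5 with the largest difference towards replicate 1 lay near Il10rb (3.16 in replicate 1 and 0.943 in replicate 2, a centred difference of 1.39), Pcdh1 (3.51 and 1.06, 1.37), Peli3 (4.38 and 1.34, 1.35), Krt5 (2.94 and 0.926, 1.32) and Gadd45b (4.11 and 1.30, 1.31). The Peli3 peak lay wholly in repeat-masked sequence with 254 genome matches, so its value is uncertain. The Il10rb peak carried AP-1 and the Pcdh1 peak GRHL.

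The 5 with the largest difference towards replicate 2 lay near Spag6 (1.36 in replicate 1 and 3.07 in replicate 2, -1.53), Ksr1 (1.18 and 2.40, -1.37), Tns1 (1.26 and 2.50, -1.34), Cic (1.29 and 2.51, -1.31) and Galnt7 (1.30 and 2.37, -1.22). The Galnt7 peak lay 114 bp from a start of a gene that is not protein-coding. All 5 were wider in replicate 2. The Spag6 peak was 380 bp wide in replicate 1 and 520 bp in replicate 2, with 3 and 7 footprints. The Ksr1 peak was 100 bp wide in replicate 1 and 700 bp in replicate 2, the Tns1 peak 280 and 620 bp, the Cic peak 80 and 700 bp and the Galnt7 peak 300 and 660 bp. These other 4 had no footprint in replicate 1 and 9, 6, 10 and 15 in replicate 2, in that order. The paired peaks coincided only in part. The Spag6 peak ran over chr2:18694361-18694740 in replicate 1 and chr2:18693961-18694480 in replicate 2. The Tns1 peak ran over chr1:74084801-74085080 and chr1:74084261-74084880. The Ksr1 and Cic peaks of replicate 1 lay within the wider peaks of replicate 2. These heights and footprint counts thus need not describe the same bases in both animals. Among the genes with the most of these peaks, Zfp503, Tnrc18 and Bcl9l also leaned towards replicate 2. The 17 Zfp503 peaks had a median difference of -0.66 and median widths of 280 bp in replicate 1 and 480 bp in replicate 2. The 18 Tnrc18 peaks had -0.60, with 260.5 and 510 bp, and the 24 Bcl9l peaks -0.36, with 230 and 448.5 bp.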

How the data were processed

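DNase-seq was measured on urinary bladders of 2 mice, 1 library each. Per the deposited description of each sample, the authors called peaks, footprints and local cut-rate false discovery rates (FDR) from each animal's own alignments to mm10. Neither the aligner nor the peak caller nor the scaling is given in the sources used here. The height of each peak is the authors' deposited signal value, and heights were whole multiples (within 0.05 of a step) of 0.00789 in replicate 1 and 0.00849 in replicate 2, so the scale differs between the animals. Library depth is likewise not given. The deposited p-value type columns hold an FDR, listed up to 0.05 for cut rates and constant at 0.01 for footprints.

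The larger of the 2 deposited peak lists per animal was used (117773 and 102671 peaks). Replicate 1 peaks that overlapped a replicate 2 peak by at least 1 bp were placed against GENCODE protein-coding transcripts on GRCm38, and 0 peaks ended beyond a chromosome of that reference. Each was paired with the replicate 2 peak that shared the most bases with it, and 1 replicate 2 peak could be paired more than once. The 14639 1-10 kb peaks were thus paired with 14277 replicate 2 peaks. Height differences are log2, replicate 1 minus replicate 2, centred on the median of all shared autosomal peaks. Motifs were sought on both strands in 150 bp about each animal's own midpoints and in flanks 1 kb away. For the shares of matches and of all positions inside footprints, windows about replicate 1 midpoints were used for both animals. Sites were compared as descriptions, since 1 group of 2 animals allows no test. Members, the 9 gene lists with 159 genes, the 28 motifs and the alternatives were chosen with earlier results of these data known. Peaks named are the 10 tallest by mean log2 height, the tallest of each urothelial and smooth muscle list gene (the few tallest with values), the 5 largest centred differences in each direction among peaks at or above the median height in both animals, and the 10 genes with the most peaks, of which 1 is not reported here. Genes of the AP-1 and immediate early list, Acta2, Myh11, Upk2 and the sites near Usp18, Hsd17b14 and Pdgfra were added after their values were seen. Genome copies were counted with blastn 2.17.0 (90% identity over 80% of the peak). Other steps used Python 3.11.15, numpy 2.4.6, pandas 2.3.3, pysam 0.24.0, samtools 1.23.1 and matplotlib 3.10.9. Only the distance classes, the overlap pairing, the placing of midpoints in intervals and the AP-1 motif search were tested on simulated data. Intervals are Wilson 95% intervals and cover counting error only.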

Additional observations from a re-analysis of the deposited data

How the results depend on the processing

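No paired analysis was possible because both animals belong to a single group. Of 64 alternative values, 39 stayed within the limits used: 1.5 times for counts, 1 SD over the animals for levels and shares, and the 95% Wilson interval for the share past 2-fold. The 14639 peaks became 8441 with the smaller deposited lists, 8646 with the higher 50% of each animal's peaks by height and 23593 with starts of every biotype, and between 18080 and 21185 with 1 animal left out, when no overlap was asked. The 8017 genes became 5252 with the higher 50% of peaks (8859 to 9768 with 1 animal left out). The mean of the animals' median heights, 1.05, became 1.53 with the smaller lists and 1.55 with the higher 50% (0.773 to 0.908 with 1 animal left out). Its log2 distance from all shared peaks, 0.041, was small and changed sign: -0.0196 with the smaller lists, -0.191 with the higher 50% and -0.0817 with starts of every biotype (0.0484 to 0.0906 with 1 animal left out). The footprint share of 88.7% became 94.9% with the smaller lists and 96.8% with the higher 50% (78.2 to 85.2% with 1 animal left out). The AP-1 share of 9.38% became 10.5% with starts of every biotype, 6.71% within 50 bp and 11.3% within 100 bp of the midpoint, where the window itself sets how much sequence is searched (8.26 to 11.1% with 1 animal left out). The share past 2-fold in either direction, 2.39%, became 1.59% with the smaller lists, 1.37% with overlap of 50% of both peaks, 1.02% with the higher 50%, 1.87% with replicate 2 peaks as the frame and 2.77% with quantile scaling, and it has no value with 1 animal. Without the peaks joined to a start, a choice made after seeing the data, that share was 2.00%. The causes of these shifts were not tested. The lowest deciles, where 53.3% and 40.2% of the peaks had a footprint, limit what footprints show.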
